A study of Drosophila melanogaster with 20 samples.

Results

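Untreated SL2 cells at day 5 were compared with untreated SL2 cells at day 1, to see which genes differ between these days of culture when no double-stranded RNA (dsRNA) is added. SL2 is an embryo-derived Drosophila melanogaster line of hemocyte (blood cell) character, grown here at 25 °C in HyQ SFX-Insect medium. The study as a whole knocked down selenophosphate synthetase 1 (SPS1) with dsRNA, and its untreated samples are the controls at days 1, 3 and 5. The day 5 group had 2 untreated samples and the day 1 group had 4, which is 6 of the 18 samples. A further 2 untreated samples at day 3, 2 SPS1 dsRNA samples each at days 5 and 3, and 5 SPS1 dsRNA samples at day 1 served as comparison. All groups are the same line and carry no other treatment. The labels call the replicates biological, but do not say whether they came from separate cultures, so p-values measure the spread between these samples. The protocol describes a split into larger dishes 24 h after dsRNA was added, and the labels do not say whether untreated wells were split alike. Time after plating, cell density and the age of the medium therefore cannot be told apart.

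A culture that is left to grow becomes denser and draws down the nutrients of its medium. Insect cells in such a setting are known to adjust sugar uptake, amino acid transport, lipid storage, oxygen-dependent enzymes and the supply of ribosomes. SL2 cells also keep innate immune pathways, among them the Imd and Toll pathways that control antimicrobial peptides, and the tumour necrosis factor of flies, Eiger, acts through the JNK pathway.

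RNA was measured on 3′ expression arrays, and each value below is an RMA log2 level, so that a difference of 1 is a 2-fold change. Array medians lay between 4.53 and 4.69, and the number of arrays limits the precision. Of 15 hemocyte markers, 5 had a mean log2 level of at least 6. These were srp, which encodes the GATA factor of blood cells, with 10.15 at day 5 and 10.12 at day 1, together with ush, drpr, crq and PPO2. Hml averaged 5.68 at day 5 and 5.91 at day 1, and eater averaged 3.85 at day 5 and 4.62 at day 1, near the lower quartile of the arrays of 3.73 to 3.86. Of the markers measured, 0 of 3 for muscle, 0 of 4 for fat body and 0 of 4 for germline reached a mean log2 of 6. For neurons 1 of 4 did, elav, with 6.70 at day 5 and 6.30 at day 1. The mean level over the 15 hemocyte markers was 5.76 to 5.84 in day 5 samples and 5.83 to 6.02 in day 1 samples, and 0 of them passed the test.

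The day 1 samples were not alike. The labels give 5 untreated replicates at day 1, and replicate 4 was left out because earlier results of these data had it resemble knockdown samples. Its level of sgll, a gene that was far lower in SPS1 dsRNA cells at day 5, was 7.76. The other untreated day 1 samples measured 8.45 to 8.70, and SPS1 dsRNA samples at day 1 measured 7.64 to 8.14. Over all probe sets replicate 4 was 0.162 to 0.175 from replicates 2 and 3, as root mean square difference of log2 levels, so that it stood with that pair of day 1 samples. From replicates 1 and 5 it was 0.256 to 0.274. The same measure over the 18769 probe sets was 0.171 between replicates 1 and 5, 0.170 between replicates 2 and 3, and 0.253 to 0.274 across these pairs. Day 5 samples lay 0.218 to 0.314 from day 1 samples and 0.253 from each other. The distance of day 5 from day 1 thus overlapped the distance between day 1 samples, and day 5 replicate 1 was closer to day 1 replicates 2 and 3 (0.218 to 0.228) than replicates 1 and 5 were. The labels give no reason for this split of day 1. In some probe sets given below, the same replicate numbers stood apart in SPS1 dsRNA cells at day 1.

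**Figure D1:**
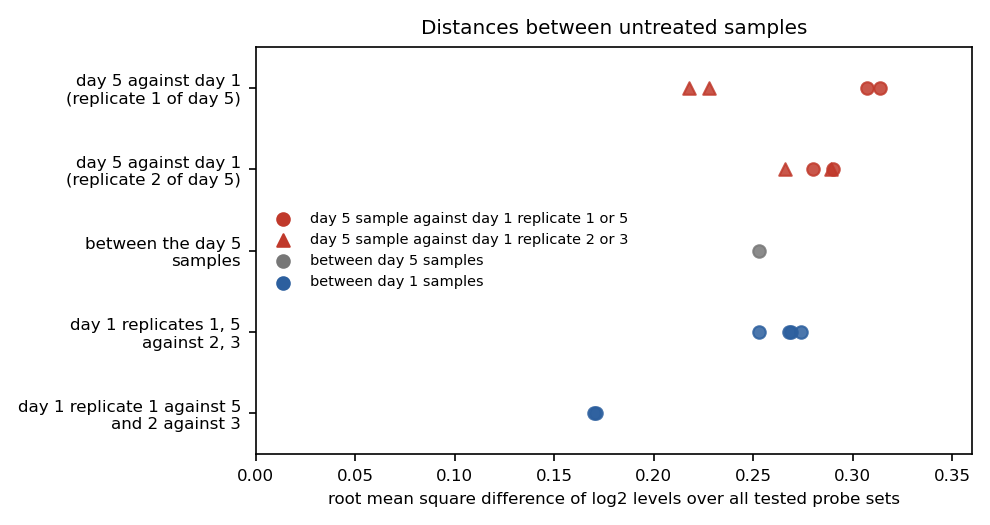
Root mean square difference of log2 levels (horizontal axis) between pairs of untreated samples, 1 point a pair, over all tested probe sets. Day 5 against day 1 spans 0.218 to 0.314 and overlaps the 0.253 to 0.274 between the 2 pairs of day 1 samples, while replicates within a day 1 pair are 0.171 and 0.170 apart.

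Few genes passed the test between day 5 and day 1. In limma with Benjamini-Hochberg adjustment over all 18769 probe sets, 20 passed an adjusted p of 0.05. Of these, 6 rose (0.0320% of all) and 14 fell (0.0746% of all), and 4 changed at least 2-fold. All 20 had day 5 and day 1 samples that did not overlap. Such separation was common, with 1759 probe sets (9.37%) higher and 2245 (12.0%) lower in both day 5 samples than in all 4 day 1 samples. At an unadjusted p of 0.05, 939 probe sets (5.00%) were higher and 871 (4.64%) were lower at day 5, 1810 in all, against 938 that a threshold of 0.05 gives over this number of tests without any difference. A change of at least 2-fold was seen for 41 probe sets, 15 higher and 26 lower, and 4 of these passed the test. The calls depended on the samples and the model. Against day 1 replicates 1 and 5 alone 32 passed, 16 higher and 16 lower, and against replicates 2 and 3 alone limma called 0, with 1237 at an unadjusted p under 0.05. With untreated samples only 0 passed (1924 unadjusted), with the 2 compared groups only 9 were higher and 4 lower, and after subtracting each array's median 9 were higher and 6 lower. Without day 5 replicate 1, or without day 5 replicate 2, 0 passed, with 1419 and 1251 unadjusted, but day 5 is then 1 sample that is assumed to vary like the other groups. Without day 1 replicate 5, 2 passed, CG34033 and ATP8B. With day 1 replicate 4 put back, 35 passed, among them 18 of the 20. With the replicate number as a block in the model 3 passed, 1 higher and 2 lower. With the replicate as a random block 29 passed, 11 higher and 18 lower.

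**Figure D2:**
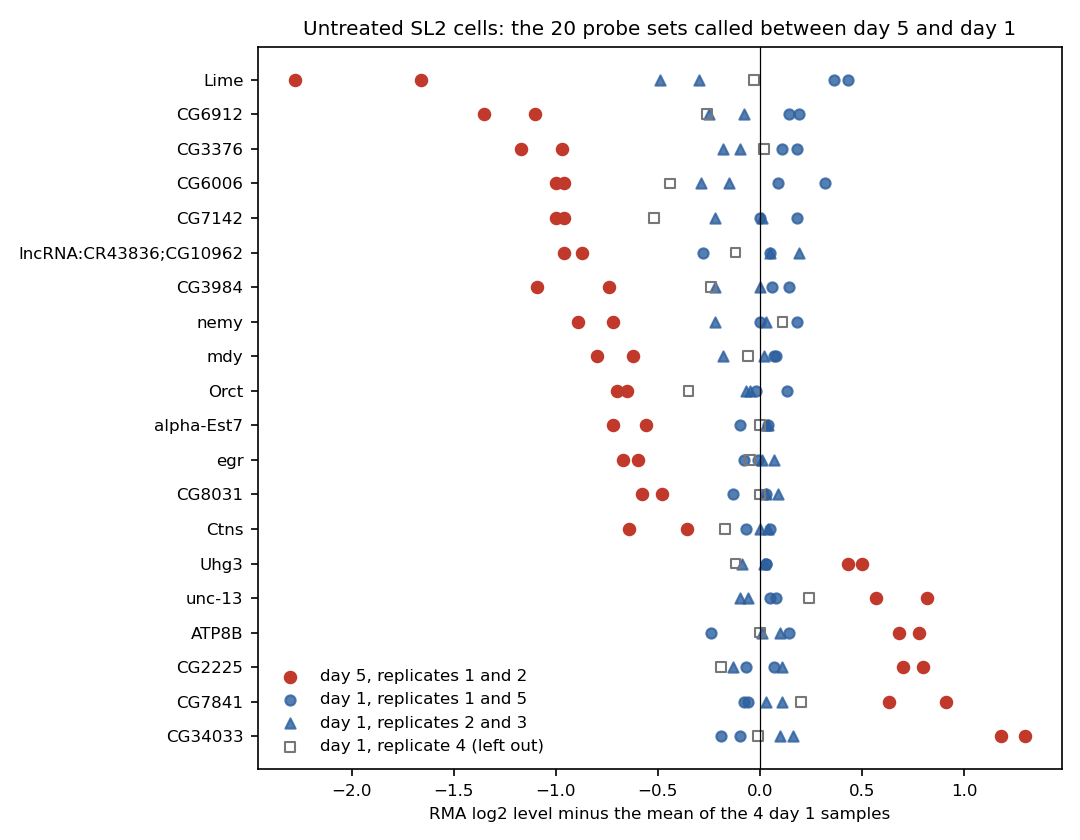
Log2 level of each untreated sample minus the mean of the 4 day 1 samples (horizontal axis) for the 20 probe sets that passed the test, ordered by their change. Red points are day 5, blue circles and triangles are the 2 pairs of day 1 samples, and open squares are day 1 replicate 4. The day 5 points lie apart from the 4 day 1 points in every line, with Lime lowest and CG34033 highest.

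Lime, named for linking immunity and metabolism and encoding a zinc finger protein, fell most. Its log2 level was 5.67 and 6.29 in day 5 samples, against 8.31, 7.46, 7.65 and 8.38 in day 1 samples. Both day 5 samples were below every day 1 sample, and the day 1 pair of replicates 1 and 5 was higher than the other pair. The level at day 5 was 3.92-fold lower (log2 change -1.97, SE 0.31, adjusted p 0.018). The change was -2.37 against day 1 replicates 1 and 5 alone and -1.58 against replicates 2 and 3 alone.

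The largest rise was in CG34033, a gene with no name beyond its number. It measured 5.61 and 5.49 at day 5, against 4.12, 4.41, 4.47 and 4.21 at day 1. Its day 1 levels lie below the median of the arrays. The rise was 2.36-fold (log2 change 1.24, SE 0.14, adjusted p 0.0048), and it was 1.38 against day 1 replicates 1 and 5 and 1.10 against replicates 2 and 3.

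Some falls were in genes with known products of metabolism and transport. mdy encodes midway, the diacylglycerol acyltransferase that makes triglyceride. Its level was 7.77 and 7.95 at day 5, against 8.64, 8.59, 8.39 and 8.65 at day 1, a 1.63-fold fall (log2 change -0.71, SE 0.12, adjusted p 0.020). Orct, an organic cation transporter, measured 8.77 and 8.72 at day 5, against 9.40, 9.37, 9.35 and 9.55 at day 1, and fell 1.59-fold (adjusted p 0.020). Day 1 replicate 4, at 9.07, lay between the 2 groups, and with it included Orct had an adjusted p of 0.051. Ctns encodes cystinosin, which exports cystine from the lysosome. It fell 1.41-fold, to 10.13 and 9.85 at day 5, against 10.42, 10.53, 10.49 and 10.54 at day 1. A second, dim probe set of Ctns differed by -0.11 (adjusted p 0.88).

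Other falls with a known product were in nemy and alpha-Est7. nemy, which encodes a cytochrome b561 and is named after a memory defect, measured 9.98 and 9.81 at day 5, against 10.70, 10.48, 10.73 and 10.88 at day 1 (log2 change -0.80, SE 0.11, adjusted p 0.013). alpha-Est7, a carboxylesterase known for insecticide resistance, measured 9.36 and 9.52 at day 5, against 9.98, 10.12, 10.11 and 10.12 at day 1, a 1.56-fold fall. Both day 5 samples were lower than all day 1 samples for either gene.

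egr encodes Eiger, the fly tumour necrosis factor. Its level was 9.20 and 9.27 at day 5, against 9.79, 9.94, 9.88 and 9.86 at day 1. Both day 5 samples were lower than every day 1 sample, and the day 1 samples were close together (SD 0.06). The fall was 1.55-fold (log2 change -0.63, SE 0.10, adjusted p 0.020). A second egr probe set, with 7.88 and 7.87 at day 5 against 8.23 to 8.59 at day 1, differed by -0.53 and had an adjusted p of 0.17.

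The other falls were in genes with numbers in place of names. CG6912 fell 2.34-fold (8.55 and 8.80 at day 5, against 9.65 to 10.09 at day 1). CG3376 fell 2.11-fold (7.70 and 7.50 at day 5, against 8.49 to 8.85 at day 1). CG6006, CG7142 and CG3984 fell 1.97-, 1.96- and 1.88-fold, and CG8031 fell 1.45-fold. With day 1 replicate 4 included, CG6006 had an adjusted p of 0.054. Its second, dim probe set differed by -0.37 (adjusted p 0.40). One further probe set, which matches both CG10962 and the long non-coding RNA CR43836, fell 1.89-fold, and the array cannot tell these apart.

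The rises other than CG34033 were between 1.39- and 1.71-fold. CG7841 measured 9.59 and 9.31 at day 5, against 8.60, 8.71, 8.79 and 8.62 at day 1, and rose 1.71-fold (log2 change 0.77, SE 0.12, adjusted p 0.017). CG2225 rose 1.69-fold, and its other probe set differed by 0.38 with an adjusted p of 0.31. ATP8B, a flippase that moves phospholipids across membranes, measured 6.26 and 6.16 at day 5, against 5.62, 5.58, 5.49 and 5.24 at day 1, and rose 1.65-fold (adjusted p 0.013). A second probe set of ATP8B, dimmer, differed by 0.14 (adjusted p 0.80). unc-13, which primes synaptic vesicles in neurons, rose 1.62-fold, to 8.86 and 8.61 at day 5, against 8.09, 7.94, 7.98 and 8.12 at day 1. Uhg3, a host gene of small nucleolar RNAs, rose 1.39-fold (9.16 and 9.09 at day 5, against 8.57 to 8.69 at day 1).

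The largest differences in probe sets with no gene name did not pass. Probe set 1635227_at measured 12.15 and 11.19 at day 5, against 8.94, 9.99, 9.98 and 8.99 at day 1 (log2 change 2.20, SE 0.53, adjusted p 0.17). Probe set 1626566_at measured 7.83 and 7.74 at day 5, against 9.64, 8.46, 8.44 and 9.73 at day 1 (log2 change -1.28, adjusted p 0.50). In both, day 1 replicates 1 and 5 stood apart from replicates 2 and 3. The same was seen in SPS1 dsRNA cells at day 1. There 1626566_at measured 9.79 and 9.86 in replicates 1 and 5, against 8.46 to 8.55 in replicates 2 to 4. Probe set 1635227_at measured 8.86 and 9.04 in replicates 1 and 5, and was higher in replicates 2 to 4. Cyp6a8, a cytochrome P450 gene split in untreated cells, overlapped there (7.46 and 7.59, against 7.52 to 7.68). Whether both treatments share the split over all probe sets was not tested.

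At day 3, between these days, 18 of the 20 probe sets differed from day 1 in the same direction. These comparisons share the day 1 samples, so their signs are not independent, and the share over all probe sets was not counted. In the day 3 comparison 11 probe sets passed (0.0586%), 8 higher and 3 lower, and 4 of them were among the 20: Ctns, CG7841, Orct and unc-13. Without day 3 replicate 1 the count was 62 and without day 3 replicate 2 it was 5, each with day 3 as 1 sample. Ctns was 10.49 at day 1, 9.76 at day 3 and 9.99 at day 5 (group means), and CG7841 was 8.68, 9.65 and 9.45 on those days. In both, the mean was farther from day 1 at day 3 than at day 5. For Orct the means were 9.42, 8.59 and 8.75, and for unc-13 they were 8.04, 8.82 and 8.73. The second egr probe set, not among the 20, also passed in the day 3 comparison (change -0.75, adjusted p 0.039). The egr probe set among the 20 averaged 9.87, 9.29 and 9.24, and its day 3 change of -0.58 had an adjusted p of 0.067. Lime was 7.95, 7.41 and 5.98, and CG34033 was 4.31, 4.71 and 5.55, so that most of the difference of these means lay after day 3. The day 3 samples were apart, at 7.84 and 6.98 for Lime and 4.47 and 4.96 for CG34033. The day 5 minus day 3 change passed for neither (adjusted p 0.45 for Lime and 0.17 for CG34033). CG3376 (8.67, 8.68 and 7.60) and ATP8B (5.48, 5.48 and 6.21) had the same mean at days 1 and 3 to within 0.01. Between day 5 and day 3, with 2 samples each, limma called 0 probe sets (0.00%), with 1056 below an unadjusted p of 0.05.

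Day 3 also had calls of its own, named here after their values were seen. JhI-26 averaged 7.59 at day 1, 8.92 at day 3 and 8.16 at day 5, and rose 2.52-fold at day 3 (adjusted p 0.0012), whereas at day 5 its change of 0.58 had an adjusted p of 0.17. GstD5, a glutathione S-transferase, averaged 5.18, 6.31 and 5.36 on those days (day 3 change 1.13, adjusted p 0.0041). A probe set shared by Hsp22, a small heat shock protein, and CG4456 averaged 7.70, 8.98 and 8.25 (day 3 change 1.28, adjusted p 0.0071).

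**Figure D3:**
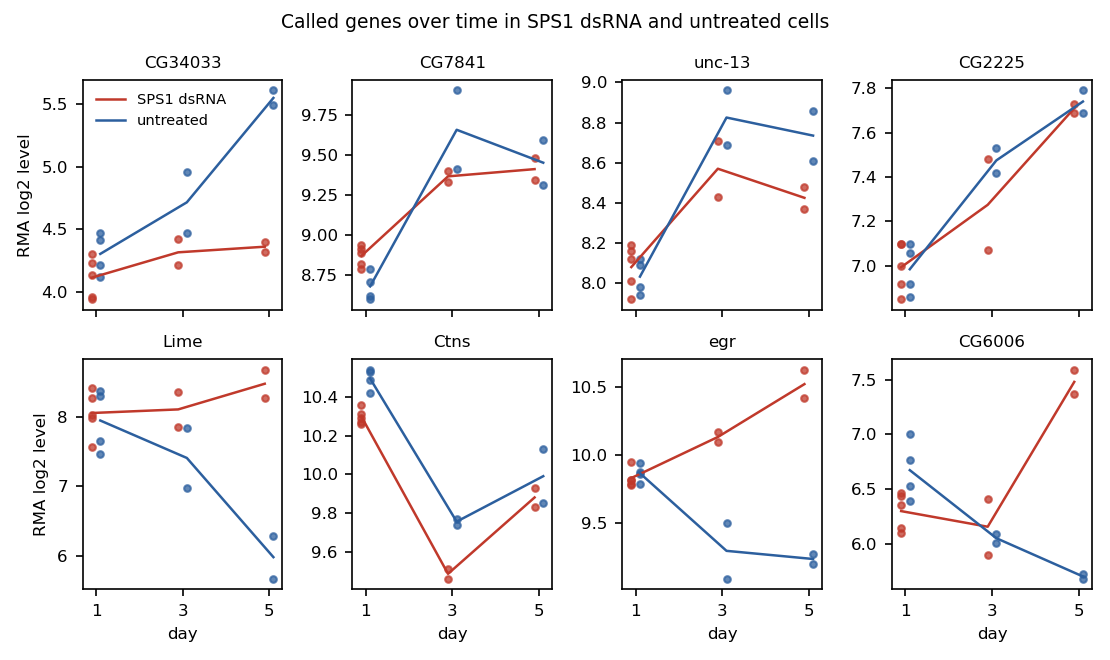
RMA log2 level (vertical axes, a different range for each gene) at days 1, 3 and 5 for 8 genes that passed the test at day 5, in SPS1 dsRNA (red) and untreated (blue) cells. Points are samples and lines join the means, with day 1 replicate 4 of the untreated cells left out. Ctns, CG7841 and CG2225 have the same direction in both, whereas egr and CG6006 fell by day 5 in untreated cells and rose in SPS1 dsRNA cells.

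The same days were then compared in cells given SPS1 dsRNA, where other samples are measured. Titles and descriptions place the 2 day 5 samples of that group under SPS1 dsRNA, whereas their source name reads as untreated, and the titles were followed. The targeted gene itself was matched to no probe set by name and is not analysed here. In SPS1 dsRNA cells 546 probe sets passed between day 5 and day 1 (2.91%), 272 higher and 274 lower, with 2 samples at day 5 and 5 at day 1. Of the 20 untreated calls, 13 had the same direction there and 6 passed. Over all probe sets, 43.7% had opposite signs in SPS1 dsRNA and untreated cells. Equal-numbered day 5 samples of both treatments shared deviations from their group means (correlation 0.71). Directions in the 2 treatments are therefore not independent. CG2225 rose by 0.72 in SPS1 dsRNA cells, against 0.75 in untreated cells. CG7841 rose by 0.54 in SPS1 dsRNA cells, against 0.77 in untreated cells. CG3984 fell by 0.66 in SPS1 dsRNA cells and by 0.91 in untreated cells, and Ctns fell by 0.42 in SPS1 dsRNA cells and by 0.50 in untreated cells.

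In egr and CG6006 the changes passed in opposite directions. egr averaged 10.52 at day 5 and 9.83 at day 1 in SPS1 dsRNA cells, a rise of 0.69 (adjusted p 0.00076), against the fall of 0.63 in untreated cells. The day 5 samples of SPS1 dsRNA cells measured 10.42 and 10.63. The difference of the changes, SPS1 dsRNA minus untreated, was 1.33 (SE 0.14, adjusted p 0.00019), and it was 1.54 in the second egr probe set (adjusted p 0.00024). CG6006 measured 7.59 and 7.37 at day 5 in SPS1 dsRNA cells, where it rose by 1.18 (adjusted p 0.00046), against a fall of 0.98 in untreated cells. The difference was 2.16 (SE 0.23, adjusted p 0.00019). A second, dim probe set of CG6006 passed in none of these comparisons. It changed by 0.17 in SPS1 dsRNA cells (adjusted p 0.72) and by -0.37 in untreated cells (adjusted p 0.40). Its difference was 0.54 (adjusted p 0.34).

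The difference of the changes passed for 215 probe sets in all (1.15%), 106 higher and 109 lower in SPS1 dsRNA cells, and for 8 of the 20. Deviations of equal-numbered SPS1 dsRNA and untreated day 5 samples from their group means correlated at 0.71 over 6848 probe sets. With the replicate as a random block 931 probe sets passed, and with the replicate number as a block in the model 184 passed. The difference uses the same untreated samples as the untreated change, so it is no independent test of that change. Beside egr and CG6006 these 8 were Lime (adjusted p 0.0094), CG7142 (0.0058), CG8031 (0.0066), nemy (0.015), CG34033 (0.020) and mdy (0.026). Lime changed by 0.42 in SPS1 dsRNA cells, against -1.97 in untreated cells. nemy changed by 0.00 in SPS1 dsRNA cells, against -0.80 in untreated cells, and mdy by 0.07 in SPS1 dsRNA cells, against -0.71 in untreated cells. CG34033 changed by 0.25 in SPS1 dsRNA cells, against 1.24 in untreated cells. For CG6912 the change was -0.57 in SPS1 dsRNA cells and -1.23 in untreated cells, a difference that did not pass (adjusted p 0.41).

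Of the 215, 172 (80%) had an untreated change under 0.5 in size, as did 97.4% of all probe sets. An untreated unadjusted p under 0.05 was seen for 76 of them (35.3%), against 9.64% of all probe sets. Changes of opposite sign in SPS1 dsRNA and untreated cells were seen for 155 (72.1%), against 43.7% of all. The 215 were selected on the difference of these same changes, which by itself favours opposite signs and small untreated p-values. These shares are therefore a description and no result about the 215. The 5 genes with the smallest p for the difference had untreated changes of -0.56 to 0.35. Rpp14b, named as a subunit of RNase P, changed by 3.45 in SPS1 dsRNA cells and 0.35 in untreated cells. sgll, an enzyme of vitamin B6 metabolism, changed by -3.56 in SPS1 dsRNA cells and -0.56 in untreated cells. Nnf1b, of the kinetochore, changed by -2.40 in SPS1 dsRNA cells and -0.08 in untreated cells. Nepl4, of the neprilysin family, changed by 2.43 in SPS1 dsRNA cells and -0.12 in untreated cells, and CG1572 by -2.45 in SPS1 dsRNA cells and 0.23 in untreated cells. Their untreated changes had adjusted p-values of 0.24 to 0.91. Sps2, the other selenophosphate synthetase gene, measured 8.50 and 7.99 at day 5, against 8.03 to 8.69 at day 1 in untreated cells, and the groups overlapped (change -0.12, adjusted p 0.93).

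**Figure D4:**
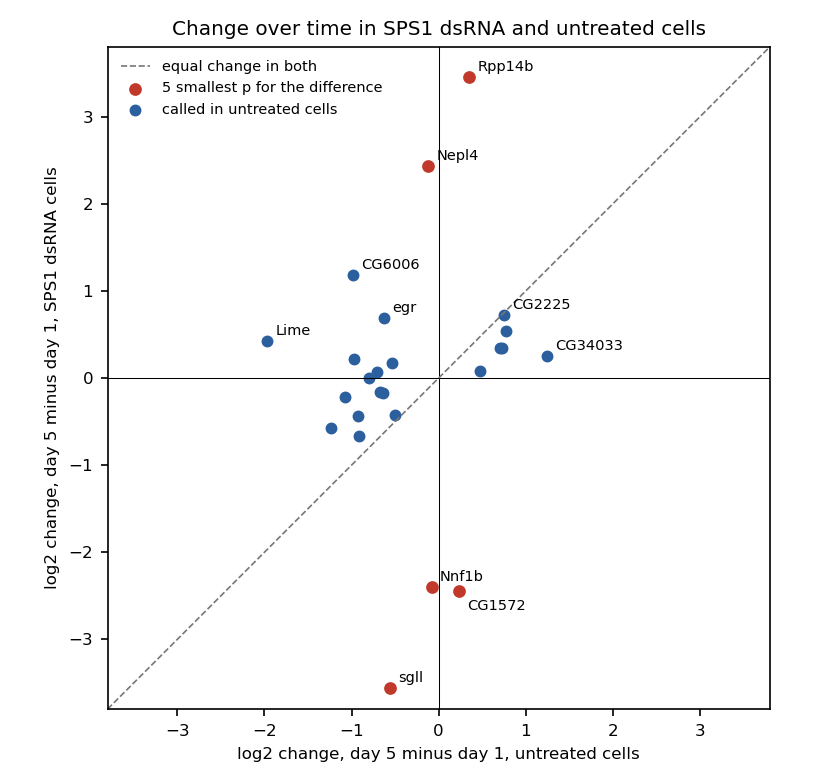
Log2 level at day 5 minus day 1 in SPS1 dsRNA cells (vertical axis) against that in untreated cells (horizontal axis), for the 20 probe sets that passed in untreated cells (blue) and the 5 genes with the smallest p for the difference (red). The dashed line marks equal change. egr and CG6006 lie at upper left, CG2225 lies near the line, and the red points spread from -3.56 to 3.45 vertically and from -0.56 to 0.35 horizontally.

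Gene lists were then read for members that moved, beside all probe sets, whose median change was -0.02. Over 34 lists, 671 genes were measured and 2 passed the test, mdy and egr, so counts at an unadjusted p under 0.05 are given below as a description. The background for such counts is 5.00% higher and 4.64% lower over all probe sets. Over the 11982 named genes, with 1 probe set each as in the lists, 676 were higher and 597 were lower. Every other gene named from a list failed the adjusted test, and Tret1-1, bgm, Lsd-1, Hmgs, SCAP and CtsL1 were chosen after their values were seen.

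Growth genes were among the lists with a positive median. Of 33 genes of the cell cycle and DNA replication, 7 were higher and 1 was lower, with a median change of 0.12. CycB, the mitotic cyclin, measured 11.01 and 11.01 at day 5, against 10.51, 10.75, 10.72 and 10.50 at day 1 (change 0.39, adjusted p 0.13). thr, which encodes a partner of separase, had a change of 0.38, and Dp, the partner of E2F, had one of 0.26. At day 3 the list's median was -0.14 and in SPS1 dsRNA cells it was -0.13. Of 29 genes of ribosome biogenesis, 6 were higher and 0 were lower, with a median of 0.24. Polr1A, the large subunit of RNA polymerase I, measured 10.09 and 10.03 at day 5, against 9.68, 9.95, 9.92 and 9.75 at day 1 (change 0.24, adjusted p 0.46). Day 1 replicates 1 and 5 were its lowest samples. The list's median was 0.46 against day 1 replicates 1 and 5 alone and 0.06 against replicates 2 and 3 alone, so its size rested on the day 1 pair chosen. Of 13 cytosolic ribosomal protein genes, 0 had an unadjusted p under 0.05, and the median was -0.04, which was 0.01 after subtracting each array's median and 0.02 after cyclic loess.

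Sugar and oxygen genes differed as single members, none past the adjusted test. Among 22 genes of sugar metabolism 4 were higher and 2 were lower, with a median of -0.10, which was 0.06 against day 1 replicates 2 and 3 alone and 0.01 without day 5 replicate 2. Pfk, phosphofructokinase of glycolysis, measured 8.53 and 7.95 at day 5, against 7.23 to 7.33 at day 1 (change 0.96, adjusted p 0.23). Tret1-1, the trehalose transporter, measured 8.64 and 7.88 at day 5, against 6.56 to 7.29 at day 1 (change 1.34, adjusted p 0.31). Hph, the prolyl hydroxylase that marks the hypoxia factor Sima for destruction, measured 11.20 and 10.89 at day 5, against 9.75 to 10.47 at day 1 (change 0.91, adjusted p 0.39). Day 3 replicate 2 was also high for Pfk (8.74), Tret1-1 (8.41) and Hph (11.79), while day 3 replicate 1 measured 7.49, 7.12 and 10.79. Of 10 hypoxia genes, 3 were higher and 0 were lower.

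The list of amino acid and solute transporters had some higher members and none past the adjusted test. It does not hold every transporter: Orct, whose fall passed, is not in it. The dmGlut probe set with an untreated change of -1.21 was not among those read for it either. JhI-21, an amino acid transporter, measured 12.44 and 12.17 at day 5, against 11.75, 11.85, 11.96 and 11.77 at day 1 (change 0.47, SE 0.09, adjusted p 0.067). ZnT63C, a zinc exporter, and mnd, an amino acid transporter, had changes of 0.44 and 0.43. In all, 3 of the 23 transporters of this list were higher and 0 were lower at an unadjusted p under 0.05. The list's median was -0.04, which was 0.04 against day 1 replicates 2 and 3 alone and 0.01 after subtracting each array's median.

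Among 24 genes of lipid metabolism, mdy fell, and at an unadjusted p 3 were higher and 3 lower. bgm, an acyl-CoA synthetase for very long chains, measured 6.46 and 6.30 at day 5, against 7.93, 7.01, 7.13 and 8.14 at day 1 (change -1.18, adjusted p 0.29). Lsd-1, a perilipin of lipid droplets, had a change of -0.70. Hmgs, which makes the precursor of mevalonate, and SCAP, which escorts the lipid sensor SREBP, had changes of 0.36 and 0.26. Of 35 lysosome and autophagy genes, 0 were higher and 4 were lower, with a median of -0.08. Ppt1, a lysosomal thioesterase, measured 9.74 and 9.78 at day 5, against 10.68, 10.42, 10.25 and 10.71 at day 1 (change -0.75, adjusted p 0.14), and the proteases CtsB and CtsL1 had changes of -0.48 and -0.26.

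Immune genes had more lower than higher members at the unadjusted threshold. Of 28 Imd and Toll pathway genes, 0 were higher and 6 were lower, with a median of -0.11. PGRP-LF, a receptor that holds the Imd pathway back, measured 5.51 and 5.63 at day 5, against 7.27, 6.43, 6.38 and 7.36 at day 1 (change -1.29, adjusted p 0.081). Its change was -1.74 against day 1 replicates 1 and 5 (adjusted p 0.0077) and -0.83 against replicates 2 and 3. Rel, the NF-κB factor of the Imd pathway, had a change of -0.38, and pirk, an inhibitor of the pathway, had one of -0.65. Of 10 antimicrobial peptide genes 1 was lower, edin, and the median was -0.22. In SPS1 dsRNA cells the median of these 10 was 1.78. The difference of changes passed for 5 of them, beside 1.15% of all probe sets, in a list made with earlier results of these data known. Mtk, which encodes Metchnikowin, averaged 10.21 at day 5 in SPS1 dsRNA cells, and 5.64 at day 5 in untreated cells. Of 32 hemocyte genes, 0 had an unadjusted p under 0.05.

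Detoxification genes had lower members too. Of 54 cytochrome P450 genes 1 was higher and 9 were lower, with a median of -0.05. Cyp6a8 measured 6.64 and 6.88 at day 5, against 8.07, 7.33, 7.44 and 8.22 at day 1 (2.0-fold lower, adjusted p 0.17). Of 35 glutathione S-transferase genes 3 were higher and 2 were lower, with a median of -0.16. Cat, catalase, measured 8.96 and 8.99 at day 5, against 9.89, 9.58, 9.53 and 9.93 at day 1 (change -0.75, adjusted p 0.20). pst, an antiviral gene in flies, measured 9.61 and 9.20 at day 5, against 10.48, 10.66, 10.84 and 10.56 at day 1 (change -1.23, adjusted p 0.076). Untreated day 1 replicate 4, at 9.60, lay with the day 5 samples and also within the 9.46 to 9.79 of SPS1 dsRNA samples at day 1.

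Extracellular matrix, stress and energy genes gave few members under an unadjusted p of 0.05. Of 33 matrix and integrin genes 2 were higher and 2 were lower, trol (perlecan) with -1.10 and Mmp2, a matrix protease, with 0.93. Of 13 heat shock and co-chaperone genes 3 were higher and 0 were lower. Of 17 genes of endoplasmic reticulum stress and secretion 2 were higher and 0 were lower. Oxidative phosphorylation had 1 lower gene of 25, the proteasome had 2 lower of 25, and the selenium pathway had 0 of 6 in either direction.

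The day 1 pair used moved many of these list genes by over 1.5 times. Cyp6a8 changed by -1.38 against day 1 replicates 1 and 5 and by -0.62 against replicates 2 and 3, and bgm by -1.66 against replicates 1 and 5 and by -0.70 against 2 and 3. Hph changed by 1.23 against replicates 1 and 5 and 0.59 against 2 and 3, Tret1-1 by 1.67 against 1 and 5 and 1.02 against 2 and 3, and Mmp2 by 1.28 against 1 and 5 and 0.58 against 2 and 3. CtsB changed by -0.70 against replicates 1 and 5 and -0.26 against 2 and 3. Cat and Ppt1 each changed by -0.93 against replicates 1 and 5 and by -0.58 against 2 and 3. CycB changed by 0.51 against replicates 1 and 5 and 0.28 against 2 and 3, and Polr1A by 0.35 against 1 and 5 and 0.13 against 2 and 3. The order was the other way for pirk, with -0.42 against replicates 1 and 5 and -0.89 against 2 and 3, and for Rel, with -0.25 against 1 and 5 and -0.51 against 2 and 3. Pfk, at 0.95 against replicates 1 and 5 and 0.98 against 2 and 3, moved little with the pair used.

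**Figure D5:**
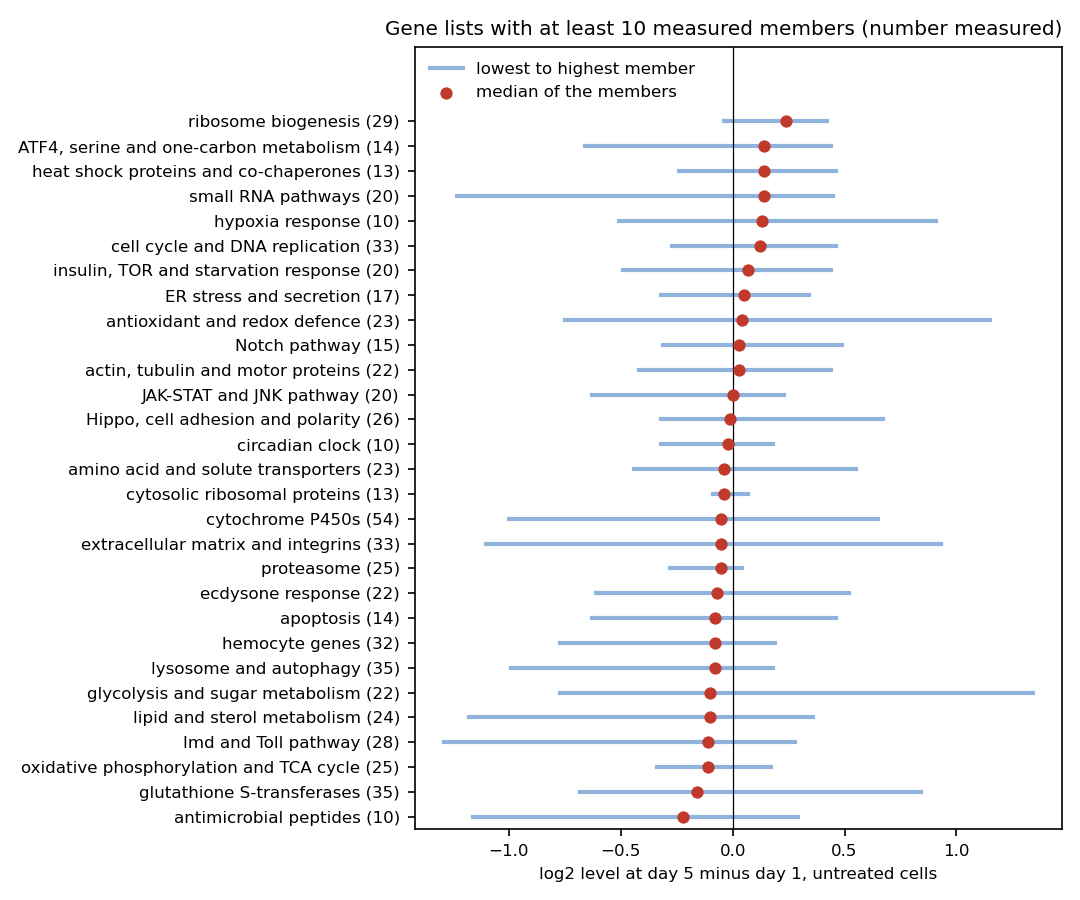
Median log2 change at day 5 minus day 1 in untreated cells (red points) for each list with at least 10 measured members, with a line for the range of its members (the number measured is in brackets). Medians run from -0.22 for antimicrobial peptides to 0.24 for ribosome biogenesis, and the ranges of single members are far wider than the medians in most lists.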

How the data were processed

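RNA of each sample was hybridised to an Affymetrix Drosophila array. The deposited values are log2 levels per probe set, and RMA is named per the submitters' processing notes, with settings not given in the sources used here. From 18952 probe sets, 183 controls were removed. Gene names came from the array's annotation: 13647 probe sets had 1 symbol, 402 several and 4720 none. Technical arrays were averaged with replicate 2 of day 3. limma 3.58.1 in R 4.3.3 was fitted over 6 groups and 17 samples, without untreated day 1 replicate 4 (11 residual degrees of freedom). The test was checked on simulated data: 88 of 100 probe sets shifted by a log2 of 1 and 99 of 100 shifted by 2 were recovered, with 5 false calls among 18769. The shifted probe sets had a mean log2 of at least 6, and noise was drawn independently for each sample. The real samples fall into sets, and most calls changed less than 2-fold. The check therefore does not give the error rate of the calls in this report.

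The members and gene lists were chosen with earlier results of these data known. Genes were named by rule: called probe sets, the smallest p of each list, the largest unnamed changes, the 5 smallest p for the difference, and Sps2. Where a gene has several probe sets, the one with the highest mean was used. Alternatives varied the scaling, the filter, the samples, the day 1 pairs and the replicate block. Levels are set against the same probe set in other samples, and fewer cells of a kind and less RNA per cell cannot be told apart in them.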

Additional observations from a re-analysis of the deposited data

Results flagged for a closer look

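The day 5 minus day 1 change differed between SPS1 dsRNA and untreated cells, in an interaction fitted in limma, for 22 of 118 named probe sets. Over all probe sets the share was 1.15%. The named ones were partly chosen on these same samples, so their count is no result about them as a set. The values are log2 changes in SPS1 dsRNA cells minus those in untreated cells, which share the untreated samples with the comparison of days. Genes that changed in untreated cells were Lime (2.39), CG6006 (2.16), egr (1.33), CG7142 (1.19), nemy (0.80), mdy (0.78), CG8031 (0.71) and CG34033 (-0.99). The genes with the smallest p for this difference, named for that reason, were Rpp14b (3.10), sgll (-2.99), CG1572 (-2.68), Nepl4 (2.55) and Nnf1b (-2.32). Immune genes were Mtk (4.64), edin (3.57), eater (3.4, a phagocytic receptor), PGRP-LF (2.44) and pirk (1.95). Metabolic and defence genes were Cyp6a8 (1.75), Gpdh1 (1.31, glycerol phosphate dehydrogenase) and Cat (1.23). The germline ligand gene grk differed by -1.38.

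Some day 1 samples stood far from the others, no more often than chance gives. Of 118 probe sets examined over the 4 day 1 samples, 5 had such a sample, and over all 5 samples 4 had one. Chance gives about 1 in 20, so the values below are only a description. Over the 4 samples, alpha-Est7 was 9.98 in replicate 1 against 10.11 to 10.12 in the others, and Uhg3 was 8.57 in replicate 2 against 8.68 to 8.69. Tps1 was 5.75 in replicate 5 against 5.38 to 5.42, trol was 8.24 in replicate 3 against 7.53 to 7.64, and Fbp1 was 4.95 in replicate 1 against 4.81 to 4.82. Over all 5, replicate 4 was low for sgll (7.76 against 8.45 to 8.70) and for pst (9.60 against 10.48 to 10.84). Replicate 1 was high for Ire1 (8.41 against 8.23 to 8.27) and low for Gclm (5.29 against 5.39 to 5.42).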

How the results depend on the processing

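The count of 20 between day 5 and day 1 was 32 after cyclic loess, 33 among probe sets with a mean log2 of at least 5, 35 with day 1 replicate 4, 13 with the 2 groups only (9 higher, 4 lower), and 0 with untreated samples only (1924 at an unadjusted p under 0.05). With day 1 replicates 1 and 5 only it was 32, and with replicates 1 and 2 only or 2 and 3 only it was 0 (1203 and 1237 unadjusted). Leaving out 1 sample gave 0 to 40 calls, with 40 without either untreated day 3 sample. With a random replicate block it was 29, and with the replicate number as a block in the model it was 3. Deviations of equal-numbered day 1 and day 5 samples correlated at -0.44 and -0.48 over 6848 probe sets. The 2 day 5 deviations mirror each other, so these values are not separate checks of whether the numbers pair these days. The block also spans the SPS1 dsRNA samples, and at day 5 their deviations correlated at 0.71 with those of equal-numbered untreated samples. For days 3 and 5 of untreated cells the correlation was 0.42, from 2 samples each. With 1 of the 2 day 5 samples removed the other is assumed to vary like the other groups. Of the 20 calls, 0 kept passing through the removal of each of the 6 compared samples in turn, and 2 through that of each day 1 sample. Subtracting each array's median gave 15 calls, 9 higher and 6 lower, and cyclic loess gave 7 higher and 25 lower, against 6 higher and 14 lower; these moved the median of all probe sets by 0.049 and 0.019.

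The 215 differences between SPS1 dsRNA and untreated cells were 113 with day 1 replicates 1 and 2 only, 100 with 2 and 3 only and 931 with a random replicate block, and leaving out 1 sample gave 95 (without untreated day 5 replicate 1) to 314 (without SPS1 dsRNA day 5 replicate 2). It gave 111 without untreated day 5 replicate 2 and 121 without SPS1 dsRNA day 5 replicate 1. The 11 calls at day 3 were 17 after cyclic loess, 5 with a replicate block, 5 with untreated samples only and 20 with day 1 replicate 4, with 5 to 62 when 1 sample was left out. The 62 came without day 3 replicate 1 and the 5 without day 3 replicate 2. Between day 5 and day 3 the 0 calls became 1 with a replicate block and 0 to 14 without 1 sample. Signs turned for Sps2 (0.12 with day 1 replicates 1 and 5 only, and -0.38 to 0.14 with 1 sample left out), mam (-0.45 to 0.00 with 1 sample left out), SelR (0.01) and Prm (0.02), the last pair with day 1 replicates 2 and 3 only. Among markers, srp went to -0.15 with day 1 replicates 1 and 5 only, and Hml, drpr, crq and ush to 0.09, 0.07, 0.02 and 0.01 with 2 and 3 only. List medians that turned with a day 1 pair, beside those in the report, were those of the proteasome (0.02 with 1 and 5 only) and the matrix list (0.02 with 2 and 3 only). Where not shown by fewer samples, the cause was not tested. The leave-one-out of samples outside a comparison, and the day 1 pairs for the difference, were chosen after seeing the data.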
